A study of Mus musculus with 40 samples.

Results

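Transcripts of 6 genes of the ubiquitin system, Ubb, Ube2b, Rnf8, Skp1, Cul1 and Siah1a, were described in single spermatocytes from mouse testis. The genes were taken by name from a table of 55492 genes. Of the 6 names 5 were found as written, and Skp1 is listed there under its older symbol Skp1a. The libraries were 20 single cells labelled Metaphase I spermatocytes and 20 single cells labelled pachytene spermatocytes, all from C57BL/6J testes (age 6 to 8 weeks). In the labelled protocol, pachytene cells obtained by centrifugal elutriation, a separation by size and sedimentation, were cultured 5 h longer with okadaic acid at 4 µM, which inhibits the phosphatases PP1 and PP2A and drives the cells to metaphase I. This text is the same for both groups, and the sources used here do not state whether the Pachytene cells were cultured or met the drug. Stage, drug and time in culture therefore cannot be told apart. No genetic alteration is named in the labels, and the cells carry no label for an animal. Each group of cells was therefore taken as 1 sample, differences are described without a test, and intervals of 95% cover counting error only.

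Ubiquitin is a small protein that is attached to other proteins, either to send them to the proteasome or to mark them, histones among them. Its attachment runs from an activating enzyme (E1) to a conjugating enzyme (E2) and then, with a ligase (E3) that picks the substrate, to the target. In spermatocytes the system is known for marking the silenced X and Y chromosomes during pachytene and for the protein destruction that carries the cell through the meiotic divisions. Ubb encodes a chain of ubiquitin units that is cut into single ubiquitins, and mice without it are infertile with germ cells arrested in meiosis. Ube2b, a mouse counterpart of yeast Rad6, is an E2 whose loss makes male mice infertile. Rnf8 is a RING-type E3 that acts at DNA breaks and on chromatin. Siah1a is another RING-type E3, and male mice without it have spermatocytes that stop in the first meiotic division. Skp1 and Cul1 are the adaptor and the scaffold of the SCF ligases, which take substrates through F-box proteins. Mouse spermatocytes that lack Skp1 fail to enter metaphase I in the normal way.

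The promoters of 3 of the genes are shown because Ubb had the highest level, and because Skp1 and Ube2b ran in opposite directions along the transcript of Aurka, described further on. Each sequence holds the 250 bases before 1 transcript start on the gene's strand, 5′ to 3′, from RefSeq on GRCm38.p6. RefSeq had 2 promoters for Ubb and 2 for Ube2b, of which 1 each is shown, and 1 for Skp1. Capitals mark matches, on either strand, to 6 motifs searched by a script: the cAMP response element TGACGTCA, its short form TGACG, the CCAAT box, the E-box CACGTG, the NRF1 motif and the TATA box TATAAA.
Ubb, chr11:62550921-62551170, plus strand: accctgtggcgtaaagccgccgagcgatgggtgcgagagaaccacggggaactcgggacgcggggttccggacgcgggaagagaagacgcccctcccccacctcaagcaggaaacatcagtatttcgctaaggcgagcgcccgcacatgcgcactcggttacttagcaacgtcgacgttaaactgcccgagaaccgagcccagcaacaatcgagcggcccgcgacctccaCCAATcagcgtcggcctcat
Ube2b, chr11:52000787-52001036, minus strand: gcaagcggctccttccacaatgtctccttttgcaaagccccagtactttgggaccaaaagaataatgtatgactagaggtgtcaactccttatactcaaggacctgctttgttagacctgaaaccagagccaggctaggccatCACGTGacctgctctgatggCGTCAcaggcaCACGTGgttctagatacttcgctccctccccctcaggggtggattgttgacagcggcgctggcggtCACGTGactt
Skp1, chr11:52231745-52231994, plus strand: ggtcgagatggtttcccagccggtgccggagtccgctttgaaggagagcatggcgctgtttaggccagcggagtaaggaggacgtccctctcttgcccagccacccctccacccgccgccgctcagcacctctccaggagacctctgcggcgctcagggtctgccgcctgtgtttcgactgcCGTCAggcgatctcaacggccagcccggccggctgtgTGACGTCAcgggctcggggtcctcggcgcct
The Ubb window held 1 CCAAT box, whose first base lay 20 bases before the start. The Ube2b window held 3 E-boxes, with first bases 107, 76 and 10 bases before the start, and 1 TGACG on the opposite strand. The Skp1 window held a full cAMP response element with its first base 31 bases before the start. It also held 3 TGACG matches, of which 2 lie inside the full element. Among 32851 promoter windows of the same length in the RefSeq table, 1.55% held TGACGTCA, 17.8% TGACG, 33.8% CCAAT, 6.02% CACGTG, 3.74% the NRF1 motif and 12.4% TATAAA. A match describes letters and does not show that a factor binds there. The annotation places exons of non-coding antisense genes in part of the Ubb and Ube2b windows and no exon in the Skp1 window. The RefSeq start shown for Ube2b lies 24 bases before the 5′ end used in the count table.

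The total count per cell ran from 198117 to 1497037 in Metaphase I (median 540662) and from 165048 to 2325564 in Pachytene (median 730979). Levels are counts per 1000000 counts of a library (CPM). All 10 late spermatocyte markers were detected in both groups, at a summed 8937 to 25894 CPM per cell in Metaphase I and 16086 to 26759 CPM in Pachytene. The 7 M-phase markers together held 836 to 3339 CPM per cell in Metaphase I (median 1849) and 769 to 3565 CPM in Pachytene (median 1384). Their ranges thus overlapped widely. All 7 had a higher level in Metaphase I when the cells of a group were summed. The difference ran from Aurka, at 408 CPM against 397 CPM in Pachytene, to Bub1b, at 76.7 CPM against 35.6 CPM. X-linked genes, known to be silenced in pachytene, held over 0.3% of counts in 8 libraries, Metaphase I replicates 3, 7, 17 and 19 and Pachytene replicates 2, 3, 7 and 19. In 7 of these 8, the 13 spermatid markers summed to between 1920 and 8040 CPM, against medians of 62.5 CPM in Metaphase I (range 7.35 to 6803) and 113 CPM in Pachytene (range 0 to 8040). The exception, Metaphase I replicate 19, had 85.2 CPM of spermatid markers, 15027 CPM of Sertoli markers and 17.5% mitochondrial counts. It held most Metaphase I counts of 8 of the 9 Sertoli markers detected there, such as Clu (96.7%) and Sox9 (99.3%), and none of the 8 counts of Dhh, while Amh, Gata4 and Rhox5 had 0 counts in both groups. Metaphase I replicate 18 had 11.2% mitochondrial counts and the lowest late spermatocyte marker sum, 8937 CPM. Results are therefore given with and without the 8 libraries, and without Metaphase I replicate 18 where stated. The part of other cell types' RNA in the results was not tested.

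The summed levels of the 6 genes lay close together in the groups. None of the 6 was over 2-fold higher or over 2-fold lower in Metaphase I, where 8.49% and 9.81% of the 16174 genes with at least 20 summed counts were. Cul1 had the largest difference, with a log2 ratio of Metaphase I over Pachytene of 0.46, and the other 5 ratios lay between -0.11 and 0.12. The count of members over 2-fold was also 0 without the 8 libraries, beside 6.32% and 4.13% of 13451 genes. It was 0 without Metaphase I replicate 19, beside 5.06% and 10.2% of all genes, and 0 without Metaphase I replicate 18, beside 7.54% and 10.2%.

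**Figure D1:**
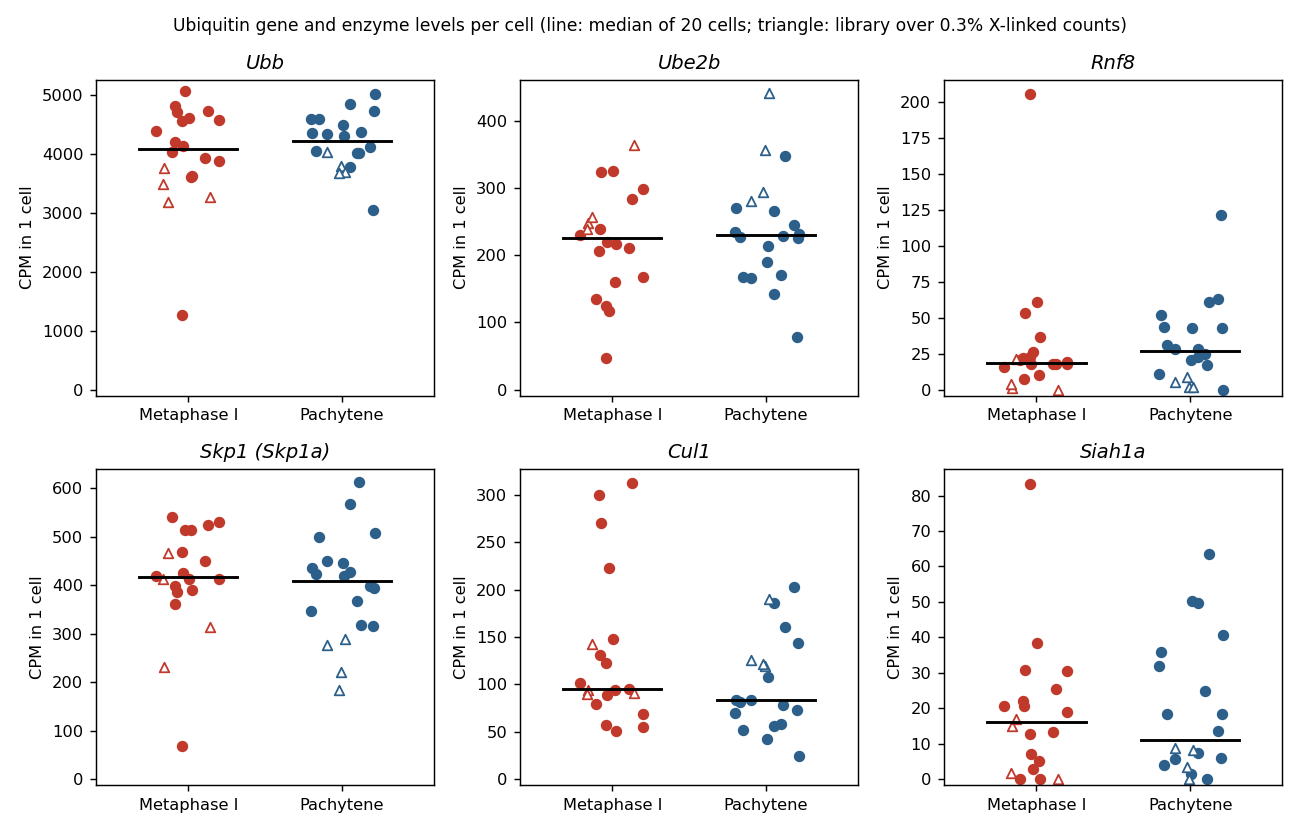
Level of each of the 6 genes in CPM (vertical axis, from 0) in 20 Metaphase I cells (left, red) and 20 Pachytene cells (right, blue). Each symbol is 1 cell, the line is the median, and open triangles are the 8 libraries over 0.3% X-linked counts. The groups overlap for all 6 genes, and 4 Metaphase I cells stand above every Pachytene cell for Cul1.

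Ubb (chr11:62551171-62553213, plus strand, GRCm38) had the 7th highest summed count of the whole table. It had 1270.3 to 5062 CPM per cell in Metaphase I (median 4075) and 3042 to 5014 CPM in Pachytene (median 4209). One Metaphase I cell, replicate 18, lay far below all other cells, and the remaining Metaphase I cells lay between 3187 and 5062 CPM. The sums were 4146 CPM in Metaphase I and 4177 CPM in Pachytene, a fold of 0.99 (0.98 to 1.00) and a log2 ratio of -0.01. Ubb also varied least of the 6 genes over cells, with a coefficient of variation of 20.99% in Metaphase I and 11.2% in Pachytene. Without replicate 18 the coefficient in Metaphase I was 13.4%. With all cells, its spread was 80.6 times what counting alone gives in Metaphase I and 33.2 times in Pachytene, as a chi-square per degree of freedom. For the rest of the 6 genes this measure lay between 8.90 and 40.3 in the groups. The counting intervals of all 6 therefore leave out most of the spread between cells. Ubb counts are uncertain in 1 respect: 43.6% of the 100-base stretches of its transcripts, and 66.0% of those in the last 500 bases, also occur in the gene models Gm1821 and Gm8797. Gm8797 itself held 390 counts in Metaphase I and 524 in Pachytene, against 56835 and 73773 for Ubb. The counts of Gm1821 are not given here.

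Rps27a, a fusion gene that joins ubiquitin to a ribosomal protein, had a summed 973 CPM in Metaphase I and 774 CPM in Pachytene. Its log2 ratio was 0.33, and 0.20 without the 8 libraries. The 4 Pachytene libraries over 0.3% X-linked counts had its lowest values, 90.6 to 246 CPM, and the next was 451 CPM. In Metaphase I replicates 3, 7 and 17 had 123, 131 and 299 CPM, replicate 18 had 196 CPM and replicate 19 had 1249.7 CPM. Its counts are uncertain, since 17.9% of its 100-base stretches also occur in other gene models.

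Ube2b (chr11:51985497-52000762, minus strand) had 47.6 to 363 CPM per cell in Metaphase I (median 225) and 78.8 to 441 CPM in Pachytene (median 229.7). The lowest cells were Metaphase I replicate 18 and Pachytene replicate 5, and the groups overlapped over most of their range. The sums were 230.4 CPM in Metaphase I and 249.3 CPM in Pachytene, a fold of 0.92 (0.88 to 0.97). The direction turned with 1 deep library: Pachytene replicate 7 held 23.3% of the Pachytene counts, and without it the log2 ratio was 0.07 in place of -0.11. With the 8 libraries left out, the sums were 225 CPM in Metaphase I and 209.5 CPM in Pachytene, a log2 ratio of 0.10. No stretch of the Ube2b transcripts was shared with another gene.

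Rnf8 (chr17:29614790-29644991, plus strand) was read at few counts, 393 in all Metaphase I cells and 475 in all Pachytene cells. It was detected in 19 of 20 cells of each group. It had 0 to 205 CPM per cell in Metaphase I (median 18.6) and 0 to 121 CPM in Pachytene (median 26.7). The highest Metaphase I cell was replicate 18, with 69 counts, and the next had 61.2 CPM. The highest Pachytene cell was replicate 5, with 20 counts. These are also the cells with the lowest Ubb and Ube2b of their groups, and they had 11.2% and 7.12% mitochondrial counts. The sums were 28.7 CPM in Metaphase I and 26.9 CPM in Pachytene, a fold of 1.07 (0.93 to 1.22). The log2 ratio was 0.09, and -0.14 without Metaphase I replicate 18. It was -0.03 without the 8 libraries. All 4 Pachytene libraries over 0.3% X-linked counts were among the lowest 5 of their group, at 2.01 to 8.54 CPM. Of the 100-base stretches of Rnf8 transcripts 12.2% also lie in the overlapping model Gm28043, which had 0 counts.

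Siah1a (chr8:86724007-86745934, minus strand) was the other gene near the counting limit, with 267 counts in Metaphase I and 338 in Pachytene. It was detected in 17 of 20 Metaphase I cells and 18 of 20 Pachytene cells, and after each cell was thinned to 160000 counts in 15 and 13 cells. A count of 0 in 1 cell allows up to 1.29 to 18.2 CPM (3 counts of the cell's total), depending on its depth among the 40 cells. It had 0 to 83.3 CPM per cell in Metaphase I (median 16.1) and 0 to 63.4 CPM in Pachytene (median 11.1). The highest Metaphase I cell was again replicate 18. The sums were 19.5 CPM in Metaphase I and 19.1 CPM in Pachytene, a fold of 1.02 (0.86 to 1.20). The log2 ratio was 0.02, and -0.10 without the 8 libraries. The gene overlaps Gm10638 on the opposite strand by 118 bases. That model held 441 counts in Metaphase I and 696 in Pachytene, and without a stated strand setting the reads of the overlap cannot be told apart.

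Skp1 (chr11:52231995-52246858, plus strand) had 68.4 to 539.9 CPM per cell in Metaphase I (median 416) and 183 to 612 CPM in Pachytene (median 408). The lowest Metaphase I cell was replicate 18, followed by replicate 3 at 231 CPM. The lowest 4 Pachytene cells were replicates 19, 3, 2 and 7, at 183, 221, 277 and 289 CPM, and the next was replicate 5 at 315 CPM. The 4 Pachytene libraries over 0.3% X-linked counts were thus the 4 with the least Skp1. This did not hold in Metaphase I, where replicates 7, 17 and 19, also over that limit, had 313, 412 and 466 CPM. The sums were 424 CPM in Metaphase I and 391 CPM in Pachytene, a fold of 1.08 (1.05 to 1.12) and a log2 ratio of 0.12. With the 8 libraries left out, they were 439.7 CPM in Metaphase I and 429 CPM in Pachytene, a fold of 1.03 (0.99 to 1.06), and the log2 ratio was 0.04.

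Cul1 (chr6:47453398-47526139, plus strand) had 50.5 to 313 CPM per cell in Metaphase I (median 94.5) and 24.7 to 203 CPM in Pachytene (median 82.9). In Metaphase I replicates 13, 14, 15 and 16 it had 269.9, 313, 299.8 and 223 CPM, all above the highest Pachytene cell. The other 16 Metaphase I cells had at most 147 CPM and lay within the Pachytene range. The sums were 149.9 CPM in Metaphase I and 109 CPM in Pachytene, a fold of 1.38 (1.29 to 1.46). Without Metaphase I replicate 13 the log2 ratio was 0.31, and without Pachytene replicate 7 it was 0.63. The higher Metaphase I sum rested on replicates 13, 14, 15 and 16, and a ratio without all of them was not computed. The sums without the 8 libraries were 159 CPM in Metaphase I and 93.7 CPM in Pachytene, a log2 ratio of 0.76. The median of single cells gave a log2 ratio of 0.19.

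**Figure D2:**
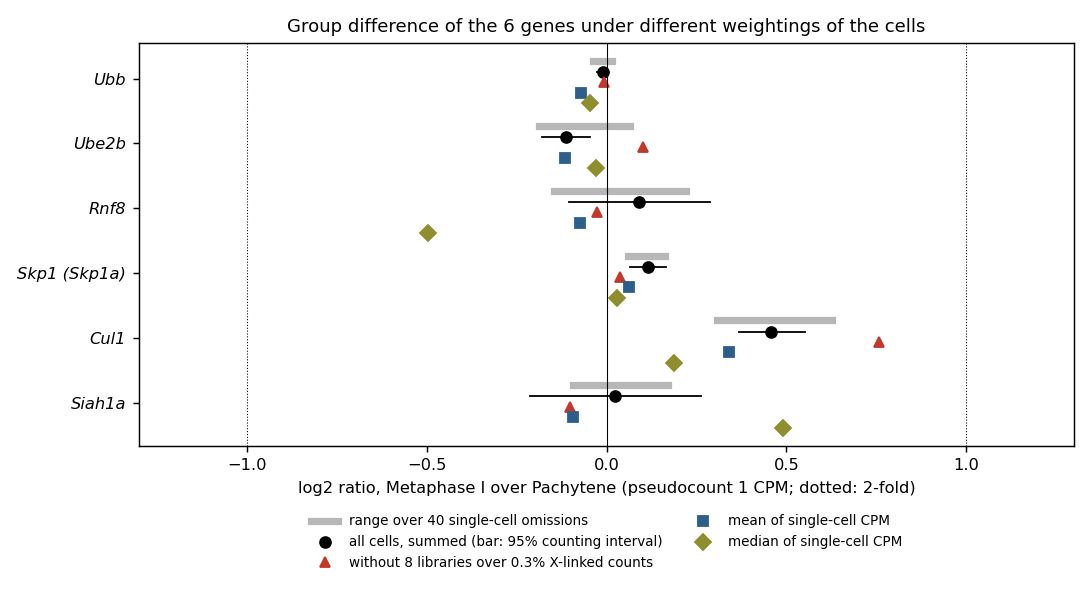
Log2 ratio of Metaphase I over Pachytene (horizontal axis, pseudocount of 1 CPM) for the 6 genes. Black points are summed counts with the 95% counting interval, grey bars the range when each of the 40 cells is left out in turn, red triangles the ratio without the 8 libraries, blue squares the ratio of means over cells and green diamonds the ratio of medians. All values lie inside the dotted 2-fold lines. Cul1 and Skp1 are above 0 under every setting drawn, and the other 4 genes fall on both sides of 0. No setting drawn leaves out Metaphase I replicates 13, 14, 15 and 16 together, on which the Cul1 sum rested.

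Levels per kilobase of exon put the genes in the same order in both groups, though counts from 3′ ends need not scale with length. Ubb had 2475 CPM per kb in Metaphase I and 2494 in Pachytene, followed by Skp1 with 192 and 177, Ube2b with 108 and 117, Cul1 with 37.1 and 26.98, Siah1a with 9.90 and 9.72, and Rnf8 with 2.45 and 2.30 CPM per kb. Ubb was above Skp1, and Ube2b above Cul1, in 20 of 20 cells of each group. Skp1 was above Ube2b in 18 Metaphase I cells and 15 Pachytene cells. Cul1 was above Siah1a in 18 and 19 cells, and Siah1a was above Rnf8 in 16 and 15 cells. The order of these 3 neighbouring pairs was thus not held in every cell. Rnf8 is counted over 11703 bases of exon, which lowers its value per kb.

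Within each group the genes differed in how they ran with M-phase transcripts. Aurka encodes the mitotic kinase Aurora A, and Ccnb1 encodes cyclin B1, the partner of Cdk1. Skp1 ran with Aurka, with a Spearman rho of 0.45 over 20 Metaphase I cells, 0.77 over 20 Pachytene cells and 0.53 over the 32 cells without the 8 libraries. With Ccnb1 its rho was lower, 0.29 in Metaphase I and 0.20 in Pachytene. Ube2b ran against Aurka, at -0.55 in Metaphase I and -0.66 in Pachytene, and so did Cul1, at -0.43 and -0.69. Both had a rho of -0.51 with Aurka over the 32 cells. With Ccnb1, Ube2b had -0.47 in Metaphase I and -0.18 in Pachytene, and Cul1 had -0.63 and -0.30. Siah1a ran against Ccnb1, at -0.69 in Metaphase I, -0.79 in Pachytene and -0.67 without the 8 libraries. With Aurka it had -0.64 in Metaphase I and -0.16 in Pachytene. Ubb had a rho with Ccnb1 of -0.51 in Metaphase I and -0.56 in Pachytene, and with Aurka of -0.13 and 0.25. Rnf8 had values between -0.22 and 0.21 with both genes in the groups. Within the groups the values thus depended on which of the M-phase transcripts was used. Over the 32 cells the rho with Ccnb1 was 0.45 for Skp1, -0.63 for Ube2b and -0.53 for Cul1. Siah1a had -0.67 with Aurka there, so these genes had the same direction with both transcripts. Ubb had -0.27 with Aurka and -0.60 with Ccnb1 over the 32 cells, and Rnf8 had -0.25 and -0.19. All these values are descriptions over cells that share a library total, and the cells of a group may share an animal.

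**Figure D3:**
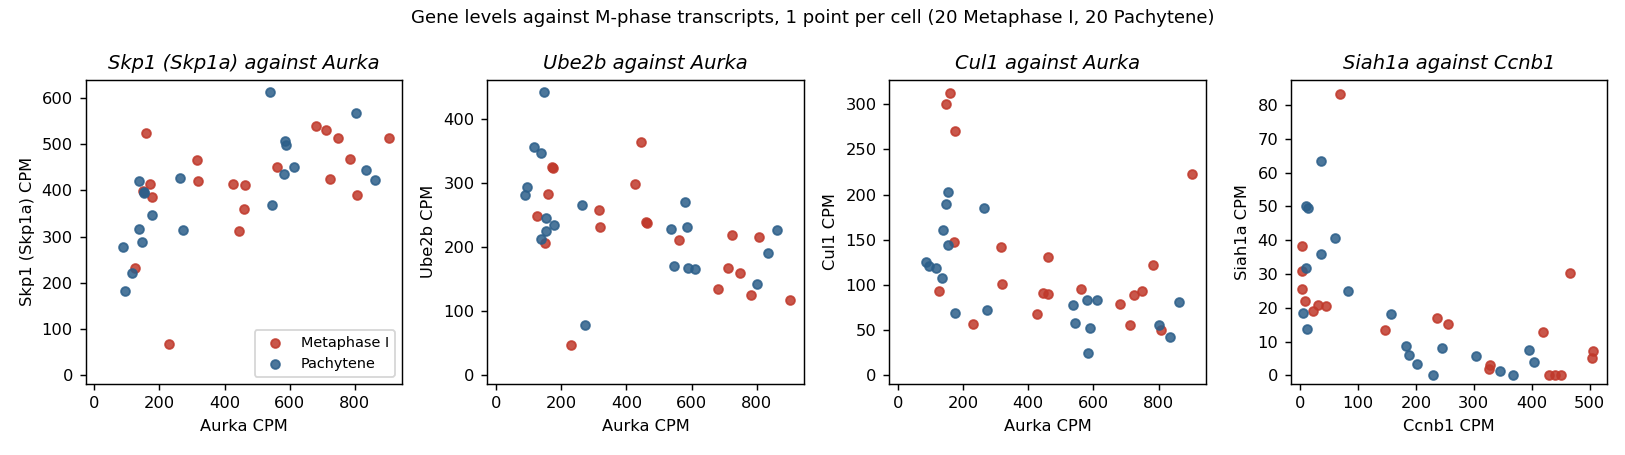
CPM of Skp1, Ube2b and Cul1 against Aurka CPM, and of Siah1a against Ccnb1 CPM, with 1 point per cell (red, 20 Metaphase I cells; blue, 20 Pachytene cells). Each gene is drawn against the one of both transcripts named for it in the text. Skp1 is higher in cells with more Aurka, with Metaphase I replicate 18 far below at 68.4 CPM. Ube2b, Cul1 and Siah1a are lower in cells with more of the transcript drawn, and cells of both groups lie along the whole of each axis.

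Correlations among the 6 genes over the 40 cells were weak to moderate, and some differed between the groups. Among their 15 pairs the highest rho over 40 cells was 0.44, for Ube2b with Cul1 and for Ubb with Siah1a. The lowest was -0.44, for Ube2b with Skp1. Within the groups, Ubb with Cul1 had 0.63 in Metaphase I and -0.13 in Pachytene. Ube2b with Cul1 had 0.27 and 0.63, Ubb with Siah1a 0.30 and 0.59, and Ube2b with Skp1 -0.35 and -0.55. Without the 8 libraries Ube2b with Skp1 had -0.26, and the lowest pair was Rnf8 with Skp1, at -0.44. The highest pair there was Ube2b with Siah1a, at 0.46. The adaptor Skp1 and the scaffold Cul1, which act in 1 complex, had a rho of 0.06 in Metaphase I and -0.54 in Pachytene, and of -0.14 without the 8 libraries. Siah1a ran with Rps27a, at 0.45 in Metaphase I, 0.73 in Pachytene and 0.49 without the 8 libraries.

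The genes most like each member were sought by Spearman correlation over the 40 cells, among genes with at least 100 counts. For Ubb they were Timm8b and Gps2, each at 0.78, and Eif3i at 0.77. For Ube2b they were Lnpep and Atad1, each at 0.77, and Lrrc42 at 0.74. For Rnf8 they were Rbm6 at 0.75, Nap1l1 at 0.73 and Gpbp1l1 at 0.71. Skp1 was most like Rab6a and Cdk1, each at 0.76, and Ecd at 0.75. Cul1 was most like Txnl1 and Cse1l, each at 0.73, and H3f3b at 0.70. Siah1a was most like Piwil1 at 0.76, and Traf7 and Mad2l1 at 0.74. Cdk1 is the kinase that drives entry into M phase, Piwil1 binds the small RNAs of pachytene spermatocytes, and Mad2l1 is a part of the spindle checkpoint. Without the 8 libraries these 18 correlations lay between 0.58 and 0.79. The genes were picked for high values over cells that include these, so that range is no separate support.

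Ube2b, Siah1a and the cullin Cul4a each have a close X-linked counterpart, Ube2a, Siah1b and Cul4b. Shares are of counts and are not divided by length. Ube2a held 5.22% of the Ube2a and Ube2b counts in Metaphase I (4.49 to 6.03) and 12.2% in Pachytene (11.3 to 13.1). Without the 8 libraries it held 0.508% in Metaphase I (0.271 to 0.867) and 0.762% in Pachytene (0.478 to 1.15). Cul4b likewise held 13.2% of its pair in Metaphase I and 16.4% in Pachytene, and 0.193% and 0.190% without the 8 libraries, where it had 2 counts in each group. Siah1b held 8.25% of its pair in Metaphase I (24 counts) and 5.59% in Pachytene (20 counts). Without the 8 libraries it held 1.64% in Metaphase I (4 counts) and 0% in Pachytene, where 0 of 312 counts allows up to 1.18% by the exact binomial interval. Outside the 8 libraries these pairs were read almost wholly from the autosome in both groups. The 8 libraries were set apart by X-linked counts, which include those of Ube2a, Siah1b and Cul4b. The low shares outside them therefore follow in part from that choice and are no separate result.

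By library, Ube2a had 130.3 CPM in Metaphase I replicate 3, 55.5 in replicate 7 and 51.3 in replicate 17. It had 78.4, 129, 179 and 104.2 CPM in Pachytene replicates 2, 3, 7 and 19. Metaphase I replicate 19 differed from the other 7 libraries, with 1.42 CPM of Ube2a beside 78.1 CPM of Cul4b. Among the remaining 32 cells Ube2a reached 36.4 CPM in Pachytene replicate 5, which had 1497 CPM of spermatid markers, and at most 8.84 CPM elsewhere.

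**Figure D4:**
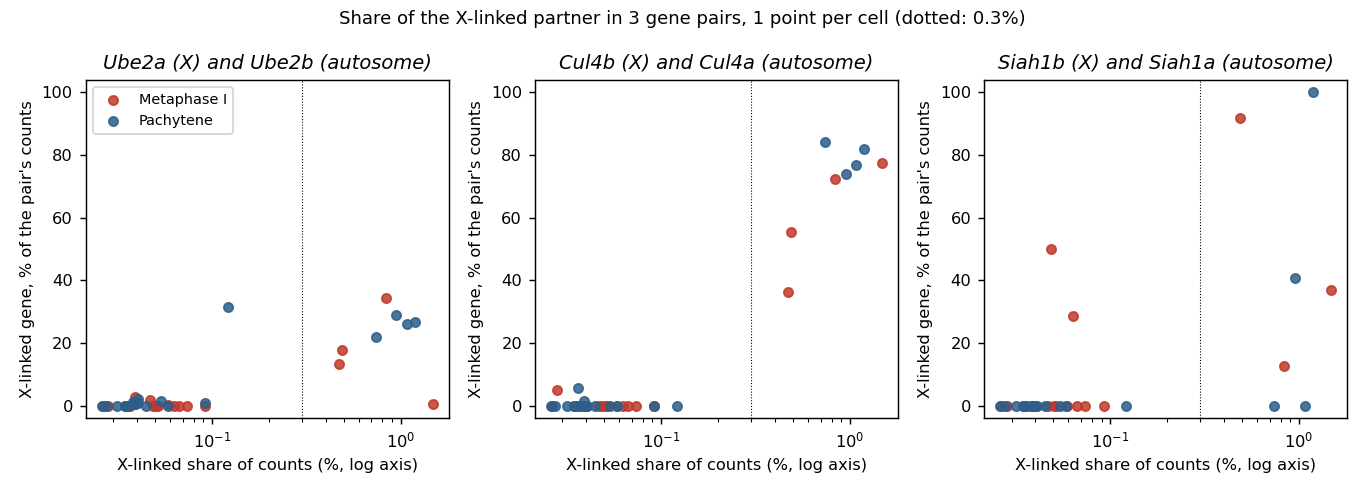
Share of the X-linked gene in the counts of each pair (vertical axis, percent) against the X-linked share of all counts (horizontal axis, percent, log scale), with 1 point per cell (red, Metaphase I; blue, Pachytene; cells with no count on a pair are not drawn). Right of the dotted line at 0.3% lie the 8 libraries, in which Cul4b holds 36.4% to 84.0% of its pair. Left of it nearly all cells lie near 0, apart from Pachytene replicate 5 for Ube2a and 2 Metaphase I cells with few counts for Siah1b. The X-linked genes of the pairs are part of the X-linked share, so the axes are not independent.

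A list of 127 further genes of the ubiquitin pathway had 116 with at least 20 summed counts. Over 2-fold higher in Metaphase I were 11 of these (9.48%, beside 8.49% of all genes), and over 2-fold lower were 4 (3.45%, beside 9.81%). The median log2 ratio over the list was 0.07, beside -0.00 over all genes. In the 32 cells without the 8 libraries 103 were measured, of which 6 were higher and 0 lower, beside 6.32% and 4.13% of all genes. Those 6 were Rnf2, Rnf20, Uba6, Ube2e2, Ube2e3 and Uchl1. Several values rested on 1 library. Leaving out Metaphase I replicate 19 gave 8 higher and 6 lower of 115 measured, beside 5.06% and 10.2% of all genes. With Metaphase I replicate 3 left out the lower count was 8, and with Pachytene replicate 7 left out it was 0. Shares over all genes were not computed for the omission of Metaphase I replicate 3 or of Pachytene replicate 7.

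Among the activating enzymes, Uba6 had 19.4 CPM in Metaphase I and 4.36 CPM in Pachytene, a fold of 4.45 (3.44 to 5.81). Replicate 19 gave 45.5% of the counts in Metaphase I, and the log2 ratio was 1.93 with all libraries and 1.36 without the 8. The main activating enzyme gene, Uba1, is X-linked and had 47 counts in Metaphase I and 36 in Pachytene, and 3 and 2 counts without the 8 libraries.

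Conjugating enzymes numbered 28 measured genes with a median log2 ratio of 0.02. Of these 4 (14.3%) were over 2-fold higher and 1 (3.57%) lower, beside 8.49% and 9.81% of all genes. The highest CPM, not divided by length, belonged to Ube2d2b, with 721 CPM in Metaphase I and 908 CPM in Pachytene, and Ube2d3, with 602 and 675 CPM. Ube2e2 had 96 counts in Metaphase I and 32 in Pachytene, a fold of 3.87 (2.57 to 5.96), with 42.7% of the Metaphase I counts from replicate 14. Ube2z, which works with Uba6, had 20.1 CPM in Metaphase I and 8.32 CPM in Pachytene, a fold of 2.41 (1.97 to 2.97). Its log2 ratio was 1.18 with all libraries and 0.96, under the 2-fold limit, without the 8. The other 2 genes over 2-fold higher were named after their values were seen. Ube2e3 had 31.2 CPM in Metaphase I and 14.3 CPM in Pachytene, with a log2 ratio of 1.08 with all libraries and 1.07 without the 8. Ube2d1 had 59 counts in Metaphase I, of which replicate 19 gave 96.6%, and 25 in Pachytene, of which replicate 7 gave 96.0%. Its direction turned without Metaphase I replicate 19, where its log2 ratio was -1.07, in place of 1.13. The gene over 2-fold lower was Ube2a.

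Of 28 measured SCF and cullin genes beside Skp1 and Cul1, 1 (3.57%) was over 2-fold higher and 0 lower. Their median log2 ratio was 0.13, and the shares over all genes were 8.49% and 9.81%. That gene, the F-box gene Fbxw11, had 54.0% of its 87 Metaphase I counts in replicate 19, and its log2 ratio was 1.25 with all libraries and -0.39 without the 8. Cul2 had a log2 ratio of 0.71, and 0.80 without the 8 libraries. Cand2, a relative of the cullin exchange factor Cand1, had a log2 ratio of -0.92, and -0.77 without the 8 libraries. The genes with the highest CPM were Cks2, with 474 CPM in Metaphase I and 374 CPM in Pachytene, and the RING subunit gene Rnf7, with 461 and 447 CPM.

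Of 29 measured ligase genes of meiosis and chromatin, 3 (10.3%) were over 2-fold higher and 2 (6.90%) lower. Their median log2 ratio was 0.03, and the shares over all genes were 8.49% and 9.81%. Rnf20, whose product ubiquitinates histone H2B, had 29.5 CPM in Metaphase I and 9.28 CPM in Pachytene, a fold of 3.17 (2.64 to 3.83), and its log2 ratio was 1.57 with all libraries and 1.41 without the 8. Rnf2, of the Polycomb complex that ubiquitinates histone H2A, had 38.8 CPM in Metaphase I and 17.8 CPM in Pachytene, with 40.2% of the Metaphase I counts from replicate 13 and a log2 ratio of 1.08. Siah2, a relative of Siah1a, had 21.4 CPM in Metaphase I and 44.7 CPM in Pachytene, a log2 ratio of -1.03, and of -0.97 without the 8 libraries. Rnf2 and Siah2 were named after their values were seen. Rnf133 had 37 of its 38 Metaphase I counts in replicate 3. Rnf151, a gene known from spermatids, had 69.4 CPM in Metaphase I and 194 CPM in Pachytene. Of these counts, 71.1% in Metaphase I came from replicate 3 and 49.5% in Pachytene from replicate 7. Its log2 ratio was -1.47 with all libraries and -0.28 without the 8. Phf7, with the highest CPM of the list, had 2076 CPM in Metaphase I and 2053 CPM in Pachytene, and Marchf10 had 678 and 792 CPM.

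Of 26 measured deubiquitinases, which remove ubiquitin, 2 (7.69%) were over 2-fold higher and 1 (3.85%) lower. Their median log2 ratio was 0.13, and the shares over all genes were 8.49% and 9.81%. Uchl1 had the largest fold of all the pathway genes, 10.2 (7.59 to 14.1). Replicate 19 gave 73.8% of the 389 counts in Metaphase I. Its log2 ratio was 2.96 with all libraries and 1.098 without the 8. Usp22 had all of its 22 Metaphase I counts in replicate 19. X-linked Usp26 had 23 counts in Metaphase I and 118 in Pachytene, and 0 and 7 counts without the 8 libraries. The highest CPM belonged to Uchl3, with 669 CPM in Metaphase I and 664 CPM in Pachytene, and Usp2, with 598 and 568 CPM.

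**Figure D5:**
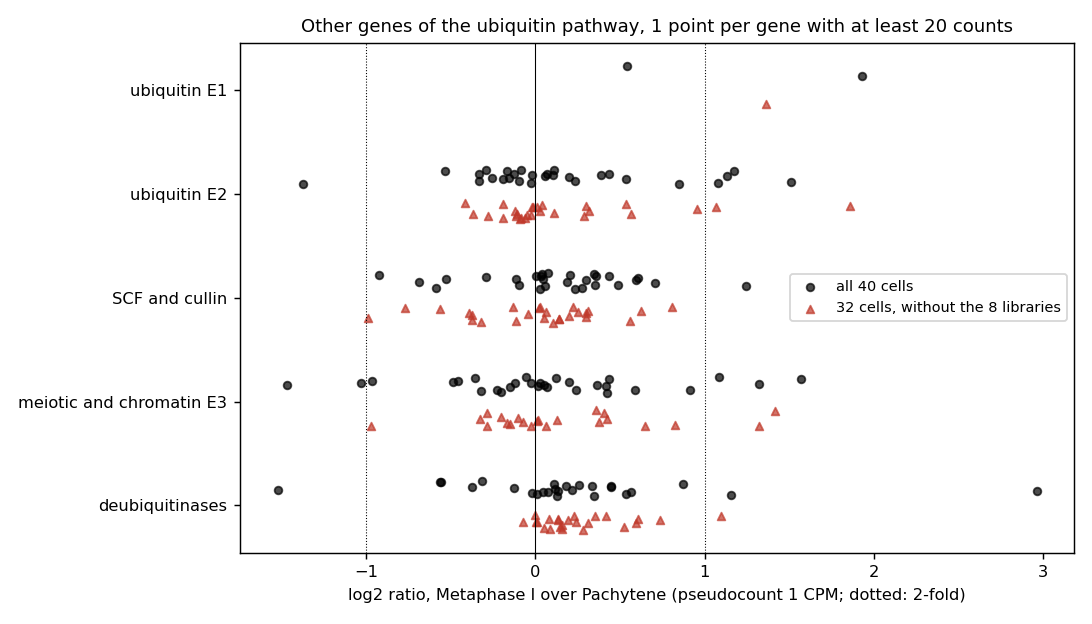
Log2 ratio of Metaphase I over Pachytene (horizontal axis, pseudocount of 1 CPM) of other ubiquitin pathway genes in 5 lists, 1 symbol per gene with at least 20 summed counts. Black points use all 40 cells and red triangles the 32 cells without the 8 libraries, and dotted lines mark 2-fold. Most genes lie inside the 2-fold lines in every list but that of the E1 genes, and no triangle lies below the lower one.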

How the data were processed

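The authors deposited 1 table of whole-number counts per gene and cell, made with UMI-tools, STAR and featureCounts on GRCm38, per the submitters' processing notes. The labels' protocols describe a modified STRT-seq: cell barcodes on oligo(dT) primers, 20 cycles of PCR before pooling, enrichment of 3′ ends and 150 bp paired reads. The sources used here do not state whether counts are reads or molecules, nor the strand setting or annotation release. All 40 columns matched a library by name, and 0 value columns were left unused.

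CPM of a group is its cells' summed count over their summed total. Log2 ratios set Metaphase I over Pachytene, each with 1 CPM added. Fold intervals are exact conditional binomial and shares exact (Clopper-Pearson), at 95%. If counts are reads, the intervals are too narrow. A gene was measured from 20 summed counts. No test between groups was made, no doublet caller was run on 40 cells, and the smallest chi-square per degree of freedom between 2 libraries was 2.69, so none was counted as a copy of another. The computation was tested on simulated counts. Python 3.11.15 with pandas 2.3.3, numpy 2.4.6, scipy 1.17.1 and matplotlib 3.10.9, and R 4.3.3 with edgeR 4.0.16 (TMM scaling), were used.

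The 6 genes, the gene lists and the 0.3% limit were chosen with earlier results of these data known. Named pathway genes are, per list, the 3 with the largest absolute log2 ratio and the 2 with the highest CPM, plus X-linked pairs, apart from some that are not reported here. Genes most like a member exclude mitochondrial, ribosomal protein and unnamed genes. Other genes named as over 2-fold were named after their values were seen. Shared 100-base stretches were found in GENCODE M21 transcripts, where all 6 genes have the deposited coordinates. Alternatives were equal weight and medians over cells, TMM, median-of-ratios, totals without mitochondrial, ribosomal protein and rRNA genes, a pseudocount of 10 CPM, count minimums of 100 and none, thinning, omission of each cell, of the 8 libraries and of Metaphase I replicate 19. To report Metaphase I replicate 18 by itself among the single omissions, and to omit it together with the 8 libraries, was chosen after seeing the data.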

Additional observations from a re-analysis of the deposited data

How the results depend on the processing

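Of 396 recomputed values, 348 stayed within the counting interval or within 1.5 times the count, and 48 moved. Most of the 396 were omissions of 1 cell, and the share that moved was larger under the other settings. Left out in turn, the 40 cells gave log2 ratios of -0.036 to 0.014 for Ubb, -0.19 to 0.065 for Ube2b, -0.14 to 0.22 for Rnf8, 0.059 to 0.16 for Skp1, 0.31 to 0.63 for Cul1 and -0.094 to 0.17 for Siah1a, with 8 to 13 pathway genes over 2-fold higher and 0 to 8 lower. Equal weight per cell moved Ubb to -0.071, Skp1 to 0.061, Cul1 to 0.34 and the higher count to 6. Medians over cells moved Ubb to -0.047, Ube2b to -0.031, Rnf8 to -0.50, Skp1 to 0.028, Cul1 to 0.19, Siah1a to 0.49 and the higher count to 6. Median-of-ratios scaling gave Ubb -0.030, and totals without mitochondrial, ribosomal protein and rRNA genes gave 0.018. Thinning to 160000 counts gave Ubb -0.056, Cul1 0.32 and a higher count of 5. A pseudocount of 10 CPM gave counts of 3 higher and 1 lower. Without the 8 libraries Ube2b was 0.10, Skp1 0.036 and Cul1 0.76, with 6 higher and 0 lower. With Metaphase I replicate 18 also left out, Ubb was 0.025, Ube2b 0.13, Rnf8 -0.27, Cul1 0.78 and Siah1a -0.23, again with 6 higher and 0 lower. With only Metaphase I replicate 18 left out, Ubb was 0.014, Ube2b -0.085, Rnf8 -0.14, Skp1 0.15, Cul1 0.48 and Siah1a -0.094. The cause of these moves was not tested, and shares over all genes were not computed beside most of these counts. After thinning Rnf8 was detected in 17 Metaphase I and 16 Pachytene cells and Siah1a in 15 and 13. No paired analysis was possible because the values come from no test, and each replicate number names 1 cell.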
